A study of Mus musculus with 8 samples.

Results

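Lysophosphatidic acid (LPA) and sphingosine-1-phosphate (S1P) signaling was represented by 10 genes of the deposited count table, chosen by their symbols: the enzymes *Enpp2* and *Sphk1*, the LPA receptors *Lpar1*, *Lpar2*, *Lpar3*, *Lpar4* and *Lpar6*, and the S1P receptors *S1pr1*, *S1pr2* and *S1pr3*. They were 10 of 54532 entries in the table, of which 27324 had at least 1 count. The 8 RNAseq libraries were prepared from primary lung fibroblasts (pFBs) of female mice on a C57/black background. The 4 WT libraries came from wild type mice, and the 4 HOMO libraries from mice homozygous for human IGFBP5 (insulin-like growth factor binding protein 5), knocked in with CRISPR/Cas9 and expressed in all tissues. All pFBs grew out of minced lung pieces, were used between passages 3 and 7 and received no treatment. The age of the mice and the number behind the libraries were not given in the sources used here, so each p-value measures the spread between these libraries. The comparison asked how the transgene changed transcript levels in HOMO against WT.

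LPA and S1P are bioactive lipids that act outside the cell through G protein-coupled receptors. Autotaxin, the product of *Enpp2*, releases LPA from lysophosphatidylcholine, whereas sphingosine kinases phosphorylate sphingosine to S1P inside the cell. In lung fibroblasts both lipids are known for their effects on migration, survival and contractility, in large part through the small GTPase RhoA, and both have been studied in pulmonary fibrosis.

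Library totals ranged from 17236521 to 29028769 counted reads in WT and from 19009027 to 31987790 in HOMO. Levels are given as CPM, read counts scaled to a common library size with the TMM factors of edgeR, and 3 counts stood for 0.0908 to 0.172 CPM. Such a floor covers counting error only. All 9 fibroblast markers had more than 3 counts in every library. The 7 macrophage markers summed to 112 to 1905 CPM in WT, highest in WT3 and WT4, and to 23.8 to 160 CPM in HOMO, with 6 of the 7 above 3 counts in every library and *Marco* at 0 in 4 libraries. The 4 mesothelial markers, all above 3 counts in every library, summed to 21.3, 23.3, 152 and 117 CPM in WT1 to WT4 and to 90.1 to 129 CPM in HOMO. Only 1 of them, *Wt1*, was upregulated (log2FC 3.36, SE 0.67, edgeR, adjusted p = 0.0166). *Msln*, *Upk3b* and *Lrrn4* were not called (log2FC -0.52, 0.09 and 0.22, edgeR, adjusted p = 0.767, 0.928 and 0.878). Epithelial markers summed to at most 11.3 CPM, with *Cdh1* upregulated (log2FC 2.77, SE 0.76, edgeR, adjusted p = 0.0462), endothelial markers to at most 7.65 CPM and lymphocyte markers to at most 0.401 CPM. These marker genes were picked for their values. The human transgene was not analysed here. Mouse *Igfbp5* had 24 to 57 counts in HOMO and 112 to 7130 in WT, where WT3 stood apart, so the genotype labels could not be checked directly. The pairs WT1/WT2, HOMO1/HOMO2 and HOMO3/HOMO4 resembled each other closely, with a biological coefficient of variation of 4.71% to 7.65% against 30.0% to 56.4% for the other 9 pairs within a genotype. These 3 pairs were counted as separate libraries, and edgeR results for some of the tested genes are also given with each pair summed.

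Of the 10 genes, 8 passed the filter on low counts and were tested with edgeR. A differentially expressed gene (DEG) needed both an adjusted p (Benjamini-Hochberg, over all 14150 tested genes) below 0.05 and an absolute log2 fold change (log2FC) above 0.6. *Lpar2* was upregulated, *S1pr1* was downregulated, and the other 6 tested genes were not called. Among all tested genes 12.1% were DEGs, 5.94% upregulated and 6.18% downregulated, which would correspond to about 1 of 8 genes. The median log2FC was -0.17 over the 8 genes and -0.04 over all tested genes. The CPM of the genotypes did not overlap for *Lpar2*, *S1pr1* and *S1pr2*, 3 of the 8, and for 27.3% of all tested genes. With DESeq2, which called 19.0% of tested genes, 3 of the 8 were DEGs, *Sphk1* being added. With limma-voom and sample quality weights, which called 25.3%, 4 were DEGs, *Sphk1* and *S1pr3* being added.

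**Figure D1:**
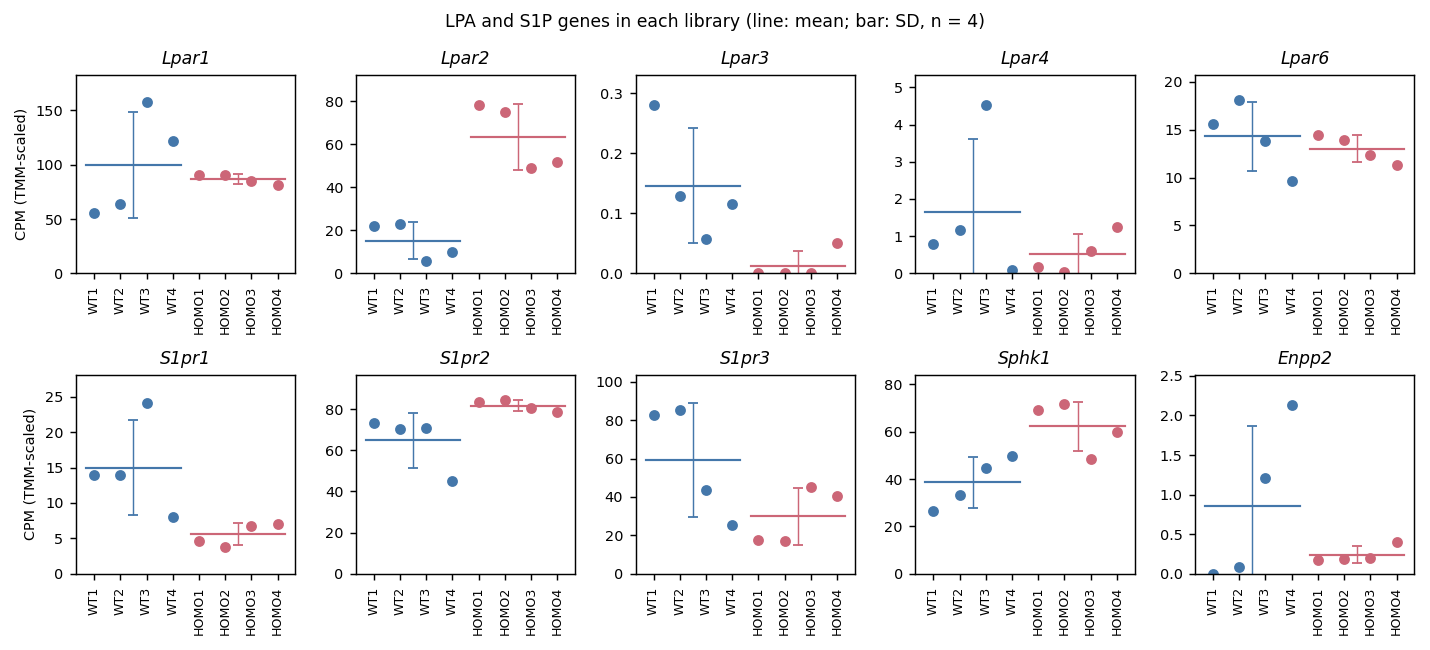
TMM-scaled CPM (vertical axis, own scale for each gene, starting at 0) of the 10 LPA and S1P genes in the WT libraries (blue) and HOMO libraries (red); each point is 1 library, horizontal lines are genotype means and bars are SD (n = 4). Every HOMO point lies above every WT point for *Lpar2* (48.9 to 78.3 against 5.74 to 22.9 CPM), and every HOMO point lies below for *S1pr1* (3.84 to 7.02 against 8.01 to 24.1 CPM).

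Promoter sequence was read from RefSeq (GRCm38.p6), which gave 14 windows for 8 of the 10 genes. The stretches shown belong to the 3 genes whose mean CPM was higher in HOMO, because a shared element upstream of them would be of interest. Each is the part of a window, from 250 bases before to 50 bases after a transcript start, that lies outside every annotated exon, and capitals mark motif matches.
Lpar2 (chr8:69822315-69822428, + strand): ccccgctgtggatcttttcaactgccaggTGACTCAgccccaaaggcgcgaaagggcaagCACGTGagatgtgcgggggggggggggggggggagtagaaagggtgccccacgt
Sphk1 (chr11:116530850-116530924, + strand): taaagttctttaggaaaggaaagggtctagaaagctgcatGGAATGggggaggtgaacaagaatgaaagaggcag
S1pr2 (chr9:20976782-20977043, - strand): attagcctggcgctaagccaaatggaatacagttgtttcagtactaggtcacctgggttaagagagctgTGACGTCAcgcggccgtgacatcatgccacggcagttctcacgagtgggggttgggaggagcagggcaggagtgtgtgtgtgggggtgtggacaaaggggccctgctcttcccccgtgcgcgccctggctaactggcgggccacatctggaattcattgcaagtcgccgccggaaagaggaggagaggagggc
On both strands 5 motifs were searched: AP-1 (TGANTCA, present in 7.81% of the 32851 RefSeq windows of this length), TEAD (GGAATG, 14.7%), EGR1 (GCGNGGGCG, 5.55%), the E-box (CACGTG, 7.15%) and the cAMP response element CRE (TGACGTCA, 1.79%). The stretch of *Lpar2* held an AP-1 match at base 30 and an E-box at base 61, that of *Sphk1* a TEAD match at base 41, and that of *S1pr2* a CRE at base 70, so no motif was shared by the 3 stretches. A further E-box of *Lpar2* runs across the end of its stretch, and another start of *Sphk1* had an AP-1 match 50 bases before it, within an annotated exon. The same E-box lay 95 and 102 bases before 2 further starts of *Sphk1*, so both motifs of *Lpar2* had a match at some start of *Sphk1*. More windows were searched for *Sphk1* than for *Lpar2*, and the percentages above hold for a single window. Of the 3 genes shown, only *Lpar2* was a DEG with edgeR. *Lpar6*, which was not called (log2FC -0.14, edgeR, adjusted p = 0.683), also had a TEAD match, 23 bases before its start. A match is a run of letters and was not tested for binding.

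*Enpp2* (chr15:54838901-54952892, GRCm38, - strand), which encodes the LPA-producing enzyme autotaxin, was close to the floor of counting. Its counts were 0, 2, 21 and 55 for WT1 to WT4, or 0, 0.0858, 1.21 and 2.13 CPM, against 4, 6, 4 and 8 for HOMO1 to HOMO4, or 0.178, 0.182, 0.203 and 0.401 CPM. The WT libraries spanned the HOMO libraries, with WT3 and WT4 above and WT1 and WT2 below all 4 of them. The mean was 0.855 ± 1.01 CPM in WT and 0.241 ± 0.107 CPM in HOMO (SD, n = 4 each), and a 2-sided exact permutation test over the 70 assignments of libraries gave p = 0.429. WT3 and WT4 were also the libraries highest in macrophage markers and the WT libraries highest in mesothelial markers, and the part of other cells in this level was not tested. In bulk RNA, fewer cells of a type and less RNA per cell cannot be told apart. Of the exon bases of *Enpp2*, 5.97% overlap the antisense gene *Gm26684*, which had 0 counts.

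*Sphk1* (chr11:116530925-116536674, + strand) encodes the kinase that phosphorylates sphingosine at the plasma membrane and in the cytosol. Its level was 26.4, 33.3, 44.8 and 49.9 CPM in WT1 to WT4 and 69.1, 71.7, 48.5 and 59.7 CPM in HOMO1 to HOMO4. HOMO3 fell just below WT4, and the other 3 HOMO libraries lay above every WT library. The means of 38.6 ± 10.7 and 62.2 ± 10.5 CPM (SD, n = 4) gave a log2FC of 0.69 (SE 0.22, 1.61-fold), which did not pass the threshold (edgeR, adjusted p = 0.0744). *Sphk1* was called by DESeq2 (adjusted p = 0.0342) and limma-voom (log2FC 0.88, adjusted p = 8.42e-04), and by edgeR without WT4 (log2FC 0.84, adjusted p = 0.0449). When WT3 and WT4, the libraries rich in macrophage markers, were both left out, the log2FC was 1.06 (edgeR, adjusted p = 0.00941). WT1 and WT2, lowest in *Sphk1*, were also lowest in mesothelial markers, and the part of such cells was not tested. With the near-identical libraries summed it was 0.59 (edgeR, adjusted p = 0.45). The antisense gene *Gm29292* shares 4.02% of the exon bases and had 69 counts over the 8 libraries. The strand setting of the counting was not given in the sources used here, so reads from such pairs cannot be told apart.

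*Lpar1* (chr4:58435255-58553898, - strand), the LPA receptor most studied in fibroblasts, had the highest mean level of the 10 genes per kilobase of exon in both genotypes, although *S1pr3* was higher in WT1 (18.6 against 12.9 CPM per kb) and WT2 (19.1 against 14.8 CPM per kb). Its CPM was 55.1, 63.4, 158 and 122 in WT1 to WT4 and 90.3, 90.8, 85.3 and 81.2 in HOMO1 to HOMO4. The HOMO libraries sat together between 2 low and 2 high WT libraries. The coefficient of variation was 49.2% in WT and 5.24% in HOMO, and the log2FC of -0.20 (SE 0.32) was not significant (edgeR, adjusted p = 0.702). WT3 and WT4, high in *Lpar1*, were again those high in macrophage markers, but HOMO1 and HOMO2 were lower in these markers than WT1 and WT2 (25.4 and 23.8 against 112 and 144 CPM) and higher in *Lpar1*. Mesothelial markers, at 152 and 117 CPM in WT3 and WT4, 128, 129, 90.1 and 97.7 CPM in HOMO1 to HOMO4 and 21.3 and 23.3 CPM in WT1 and WT2, placed WT1 and WT2 lowest and WT3 highest, as *Lpar1* did. The part of either cell type in the level of *Lpar1* was not tested. WT4 also stood 0.36 above the other WT libraries in the median log2 CPM of genes on chromosome 4, whereas WT3 differed by -0.03. Without WT3 the log2FC of *Lpar1* turned to 0.11 (edgeR, adjusted p = 0.799). Without both WT3 and WT4 it was 0.55 (edgeR, adjusted p = 0.00843), and with limma-voom it was 0.44 (adjusted p = 0.0136), both inside the fold change limit. The direction therefore depended on these 2 libraries.

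*Lpar2* (chr8:69822429-69831102, + strand), an LPA receptor that couples to several classes of G protein, was the only one of the 10 genes to be upregulated in HOMO under edgeR. Its counts were 393, 535, 100 and 256 for WT1 to WT4, compared with 1757, 2480, 965 and 1037 for HOMO1 to HOMO4. These counts correspond to 22.1, 22.9, 5.74 and 9.91 CPM in WT and to 78.3, 75.0, 48.9 and 52.0 CPM in HOMO. The lowest HOMO library exceeded the highest WT library by more than the whole range within WT. *Lpar2* averaged 15.2 ± 8.67 CPM in WT and 63.6 ± 15.3 CPM in HOMO (SD, n = 4), a log2FC of 2.07 (SE 0.43, 4.19-fold, edgeR, adjusted p = 0.0197).

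The direction of *Lpar2* was the same in all 8 fits that left out 1 library, with a log2FC of 1.80 to 2.33, and it was called in 6 of them. The call was lost without HOMO1 (edgeR, adjusted p = 0.0665) and without HOMO2 (edgeR, adjusted p = 0.0659). With the near-identical libraries summed, the log2FC was 2.31 (edgeR, adjusted p = 0.274). It was 1.5 (edgeR, adjusted p = 0.00618) without WT3 and WT4, the 2 libraries lowest in *Lpar2* and highest in macrophage markers.

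Genes around *Lpar2* were mostly higher in HOMO as well. Within 1000 kb of its start 61 other genes were tested, with a median log2FC of 0.50. Of them 49 were higher in HOMO and 19 were upregulated DEGs, where 5.94% of all tested genes were upregulated. The largest increase was that of *Lpl* (lipoprotein lipase, log2FC 4.14, SE 0.70, edgeR, adjusted p = 0.00973). The nearest genes on either side were *Gmip* (log2FC 0.99, SE 0.24, edgeR, adjusted p = 0.0318) and *Pbx4* (log2FC 0.35, SE 0.25, edgeR, adjusted p = 0.363). Over the 790 tested genes of chromosome 8 the median log2FC was 0.37. For the other 7 tested LPA and S1P genes, the median over their chromosome was between -0.23 and 0.12. The part of the chromosome in the level of *Lpar2* was not tested.

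**Figure D2:**
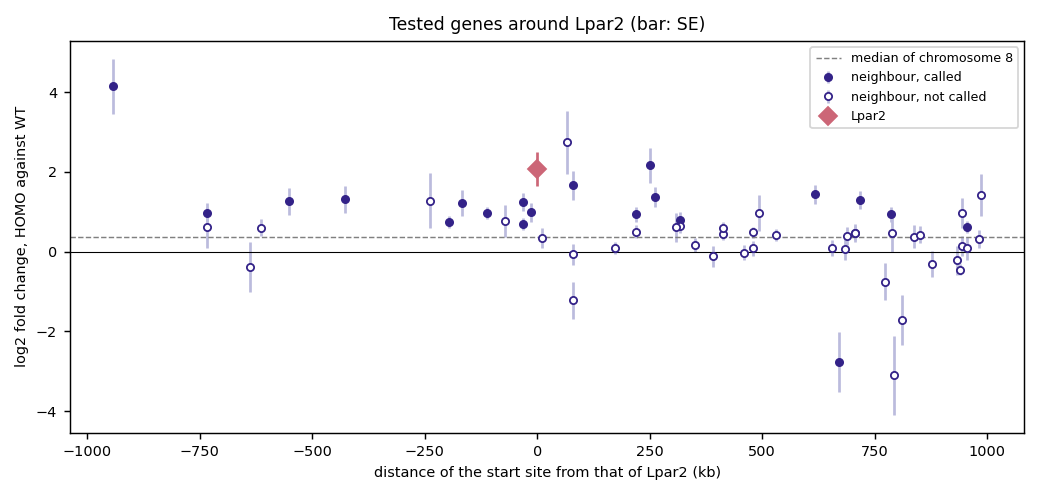
Log2FC of HOMO against WT (vertical axis, bars are SE) for *Lpar2* (red diamond, at 0 kb) and the 61 tested genes whose start lies within 1000 kb, plotted by distance between starts (horizontal axis, kb); filled points are DEGs, and the dashed line is the median of chromosome 8 (0.37). Of the neighbours, 49 lie above 0 and 19 of these are upregulated DEGs, and *Lpl*, *Cilp2* and *Tm6sf2* are the genes above *Lpar2* at 2.07.

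*Lpar3* (chr3:146220963-146286186, + strand), another LPA receptor, was barely detected and stayed outside the edgeR test. Its counts were 5, 3, 1 and 3 for WT1 to WT4 against 0, 0, 0 and 1 for HOMO1 to HOMO4. All 4 WT libraries had at least 1 count, and 3 of 4 HOMO libraries had none. The summed counts of 12 and 1 gave a WT to HOMO ratio of 13.5 (95% exact counting interval 2 to 579, which leaves out the spread between libraries). The 2-sided exact permutation test on CPM gave p = 0.0286, the smallest value that 4 against 4 libraries allow. This test took the near-identical pairs as separate libraries and was not run with them summed, where so small a value could not arise. At 0.281 CPM and below, these levels were at or near the floor of 3 counts.

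*Lpar4* (chrX:106920625-106933900, + strand) and *Lpar6* (chr14:73237895-73243294, + strand) belong to the branch of LPA receptors related to purinergic receptors. *Lpar4* reached 0.788, 1.16, 4.53 and 0.0774 CPM in WT1 to WT4 and 0.178, 0.0303, 0.608 and 1.25 CPM in HOMO1 to HOMO4. The genotypes overlapped throughout, and the WT mean of 1.64 ± 1.98 CPM rested on WT3, against 0.518 ± 0.548 CPM in HOMO (SD, n = 4). Its log2FC was -1.68 (SE 1.17, edgeR, adjusted p = 0.352), and -0.42 without WT3 (edgeR, adjusted p = 0.821).

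*Lpar6* was steadier, with 15.6, 18.1, 13.8 and 9.68 CPM in WT1 to WT4 and 14.4, 13.9, 12.3 and 11.3 CPM in HOMO1 to HOMO4. All HOMO libraries fell inside the WT range. The means of 14.3 ± 3.57 and 13.0 ± 1.41 CPM (SD, n = 4) differed by a log2FC of -0.14 (SE 0.22, edgeR, adjusted p = 0.683). *Lpar6* lies within *Rb1* on the opposite strand and shares 7.56% of its exon bases with it. WT4, lowest in *Lpar6*, stood -0.23 from the other WT libraries in the median log2 CPM of chromosome 14.

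*S1pr1* (chr3:115710433-115715072, - strand), the S1P receptor known for lymphocyte egress and vascular barrier function, was the only one of the 10 genes to be downregulated in HOMO under edgeR. WT1 to WT4 gave 249, 324, 420 and 207 counts of it, compared with 105, 127, 132 and 140 from HOMO1 to HOMO4. The CPM was 14, 13.9, 24.1 and 8.01 in WT and 4.68, 3.84, 6.69 and 7.02 in HOMO. The genotypes did not overlap, but WT4 and HOMO4 were close neighbours and WT3 stood high. *S1pr1* averaged 15.0 ± 6.68 CPM in WT and 5.56 ± 1.54 CPM in HOMO (SD, n = 4), a log2FC of -1.43 (SE 0.36, 2.70-fold, edgeR, adjusted p = 0.0344).

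The log2FC of *S1pr1* was between -1.64 and -1.11 in the 8 fits without 1 library, but it was called in only 2 of them, without WT3 (edgeR, adjusted p = 0.0387) and without WT4 (edgeR, adjusted p = 0.0174). Without WT1, WT2 or any 1 HOMO library the adjusted p was between 0.0549 and 0.111 (edgeR). The adjusted p was 0.378 with near-identical libraries summed (edgeR, log2FC -1.47) and 0.0114 without both WT3 and WT4 (edgeR, log2FC -1.33). WT3 stood 0.37 above the other WT libraries in the median log2 CPM of chromosome 3. Of the 15 tested genes within 1000 kb of *S1pr1*, 0 were DEGs with edgeR (5 at an unadjusted p below 0.05, 3 called by DESeq2 and 5 by limma-voom), and their median log2FC was -0.12. Over all tested genes edgeR called 12.1%, DESeq2 19.0% and limma-voom 25.3%. The median log2FC over the 683 tested genes of chromosome 3 was -0.23. Endothelial markers, of which 2 of 7 had more than 3 counts in every library, summed to 2.27 to 4.92 CPM in WT and 2.96 to 7.65 CPM in HOMO. Macrophage markers summed to 112 to 1905 CPM in WT and 23.8 to 160 CPM in HOMO. Smooth muscle and pericyte markers summed to 62.6 to 207 CPM in WT and 12.7 to 114 CPM in HOMO. Of these *Rgs5* was downregulated (log2FC -5.20, SE 1.46, edgeR, adjusted p = 0.0486), at 36.1 CPM in WT4 and 0 to 3.86 CPM in the other libraries. *Myh11*, *Cspg4*, *Des* and *Actg2* were not called (log2FC -1.29, -0.31, -0.04 and -0.59, edgeR, adjusted p = 0.553, 0.725, 0.985 and 0.678). The part of these cells in the level of *S1pr1* was not tested.

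*S1pr2* (chr9:20962361-20976781, - strand), a receptor that signals to RhoA, had the lowest coefficient of variation of the 10 genes in WT (20.6%) and in HOMO (3.15%). Its CPM was 73.1, 70.4, 70.6 and 44.8 in WT1 to WT4 and 83.2, 84.3, 80.5 and 78.6 in HOMO1 to HOMO4. Every HOMO library lay above every WT library, and WT4 stood well below the other 3 WT libraries. The means of 64.8 ± 13.3 and 81.6 ± 2.57 CPM (SD, n = 4) gave a log2FC of 0.33 (SE 0.17, edgeR, adjusted p = 0.202), which was 0.19 without WT4 (edgeR, adjusted p = 0.221). WT4 was -0.19 from the other WT libraries in the median log2 CPM of chromosome 9.

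*S1pr3* (chr13:51408639-51422797, + strand), a receptor found in many mesenchymal cells, split along the near-identical pairs. It reached 82.9, 85.3, 43.7 and 25.3 CPM in WT1 to WT4 and 17.4, 17.1, 45.0 and 40.6 CPM in HOMO1 to HOMO4. WT1 and WT2 were highest, HOMO1 and HOMO2 lowest, and the remaining libraries of both genotypes mixed in between. The means of 59.3 ± 29.6 and 30.0 ± 14.9 CPM (SD, n = 4) gave a log2FC of -0.98 (SE 0.47, edgeR, adjusted p = 0.184). It was called with limma-voom (log2FC -1.42, adjusted p = 0.00357) and without WT3 and WT4 (log2FC -1.49, edgeR, adjusted p = 0.0378). The 5 smooth muscle and pericyte markers summed to 70.5, 62.6, 207 and 81.5 CPM in WT1 to WT4 and 12.7, 13.3, 103 and 114 CPM in HOMO1 to HOMO4, with 4 of the 5 above 3 counts in every library. HOMO1 and HOMO2 were thus lowest both in *S1pr3* and in these markers. WT1 and WT2, highest in *S1pr3*, were below HOMO3 and HOMO4 in the markers. WT3, highest in the markers at 207 CPM, had *S1pr3* at 43.7 CPM. The part of such cells in the level of *S1pr3* was not tested.

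**Figure D3:**
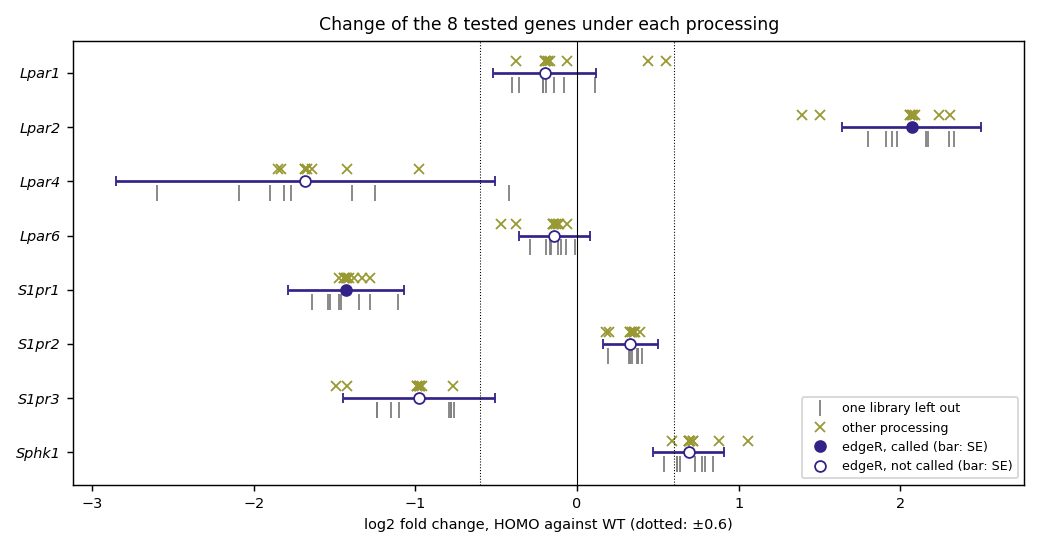
Log2FC of HOMO against WT (horizontal axis) for the 8 tested genes; circles are edgeR estimates with SE bars, filled for DEGs, grey ticks are fits without 1 library, crosses are other processing, and dotted lines mark ±0.6. *Lpar2* and *S1pr1* keep their direction throughout, and *Lpar1* has values on both sides of 0 (-0.40 to 0.55).

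To compare levels between genes, CPM was divided by the length of annotated exons in kilobases. In WT the order of mean CPM per kb was *Lpar1* (23.2 ± 11.4), *S1pr3* (13.3 ± 6.63), *S1pr2* (8.12 ± 1.67), *Sphk1* (8.08 ± 2.24), *S1pr1* (4.93 ± 2.19), *Lpar6* (2.65 ± 0.661), *Lpar2* (2.60 ± 1.48), *Lpar4* (0.387 ± 0.467), *Enpp2* (0.148 ± 0.175) and *Lpar3* (0.0592 ± 0.0388) (SD, n = 4). Every gene overlapped the next in this order. In HOMO the order was *Lpar1* (20.3 ± 1.06), *Sphk1* (13.0 ± 2.20), *Lpar2* (10.9 ± 2.61), *S1pr2* (10.2 ± 0.322), *S1pr3* (6.73 ± 3.33), *Lpar6* (2.40 ± 0.261), *S1pr1* (1.82 ± 0.506), *Lpar4* (0.122 ± 0.129), *Enpp2* (0.0417 ± 0.0186) and *Lpar3* (0.00509 ± 0.0102). *Lpar1* stood clear of *Sphk1*, *S1pr3* of *Lpar6*, *S1pr1* of *Lpar4* and *Enpp2* of *Lpar3*, and the other neighbours overlapped. *Lpar2* thus ranked 7 of 10 in WT and 3 of 10 in HOMO.

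As a share of the summed CPM per kb of the 5 LPA receptors, *Lpar2* made up 19.1%, 17.6%, 2.37% and 5.29% in WT1 to WT4 and 36.1%, 35.1%, 27.3% and 29.4% in HOMO1 to HOMO4. The share of *Lpar1* was 64.8%, 66.0%, 88.8% and 88.9% in WT and 56.6%, 57.8%, 64.8% and 62.6% in HOMO. *Lpar1* was therefore the main LPA receptor transcript in every library, and *Lpar2* was the second in every HOMO library and in WT1 and WT2. In WT3 and WT4 the second was *Lpar6*, at 6.18% and 5.59%. The sum of the 5 receptors overlapped between genotypes, at 19.8 to 41.5 CPM per kb in WT and 30.2 to 37.2 in HOMO.

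Among the 3 S1P receptors, *S1pr2* accounted for 28.4%, 27.2%, 33.4% and 40.4% of the summed CPM per kb in WT1 to WT4 and 65.7%, 67.5%, 45.1% and 46.4% in HOMO1 to HOMO4. *S1pr1* accounted for 14.2%, 14%, 29.8% and 18.9% in WT and 9.68%, 8.05%, 9.81% and 10.8% in HOMO. Neither share overlapped between genotypes. A share also depends on the other receptors summed, and *S1pr2* itself was not called (log2FC 0.33, edgeR, adjusted p = 0.202). The share of *S1pr3* did overlap, with 36.9% to 58.8% in WT and 24.5% to 45.1% in HOMO. The summed level was 13.9 to 32.5 CPM per kb in WT and 15.7 to 22.4 in HOMO.

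**Figure D4:**
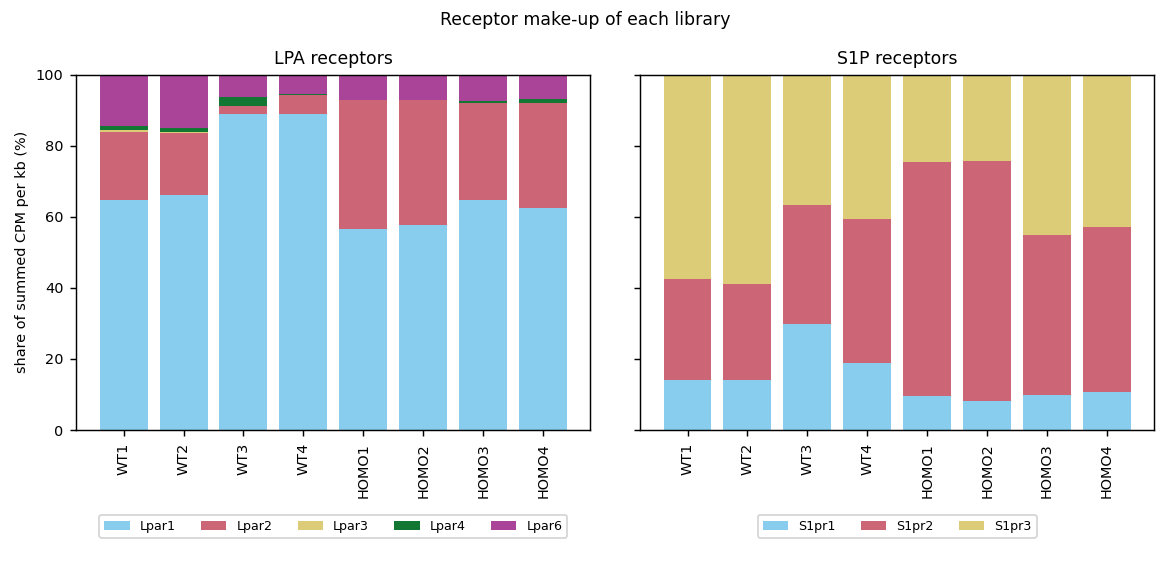
Share (vertical axis, percent of summed CPM per kb, from 0 to 100) of each of the 5 LPA receptors (left) and 3 S1P receptors (right) in each of the 8 libraries. The share of *Lpar2* is 27.3% to 36.1% in HOMO and 2.37% to 19.1% in WT, and that of *S1pr2* is 45.1% to 67.5% in HOMO and 27.2% to 40.4% in WT. A share depends on every receptor summed, and *S1pr2* itself was not called.

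The pathway around these genes was read from 5 lists with 74 other genes, of which 63 were tested, 1 was upregulated and 5 were downregulated. These 6 DEGs among 63 compare with 12.1% of all tested genes. The median log2FC was -0.29, with 22 genes higher and 41 lower in HOMO, against -0.04 over all tested genes.

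Of 13 genes of LPA synthesis and breakdown, 12 were tested, 2 were downregulated and the median log2FC was -0.30. Over all tested genes 6.18% were downregulated. *Plpp3*, a lipid phosphatase that degrades LPA and S1P outside the cell, was at 160 to 347 CPM in WT and 93.2 to 145 CPM in HOMO without overlap (log2FC -1.07, SE 0.25, edgeR, adjusted p = 0.0273). *Enpp1*, on the list although it hydrolyses nucleotides, is a relative of autotaxin. Only *Plpp3* of the 2 DEGs is thus described here as acting on LPA. The level of *Enpp1* was 3.90 to 19.2 CPM in WT and 0.758 to 3.86 CPM in HOMO (log2FC -2.50, SE 0.67, edgeR, adjusted p = 0.0422). WT3 and HOMO4 almost met for *Enpp1*.

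Of 27 genes of S1P synthesis, breakdown and export, 22 were tested, 1 was upregulated and the median log2FC was -0.17. Over all tested genes 5.94% were upregulated. *Sgpp2*, an S1P phosphatase of the endoplasmic reticulum, was at 3.52, 4.51, 2.03 and 2.41 CPM in HOMO1 to HOMO4 and at 0 to 0.0858 CPM in WT. It summed to 316 counts in HOMO and 3 in WT, a ratio of 93.4 (95% exact counting interval 31.7 to 455). This interval covers counting error only and leaves out the spread between libraries. With 0, 2, 0 and 1 counts in WT1 to WT4, *Sgpp2* passed the filter through HOMO alone. It was called by edgeR (adjusted p = 0.00206). *Sptlc1*, a subunit of serine palmitoyltransferase, had a log2FC of -0.46 (SE 0.13, edgeR, adjusted p = 0.0464), inside the fold change limit. *Sphk2*, the other sphingosine kinase, and *Sgpl1*, the S1P lyase, both named after their values were seen, had log2FCs of 0.09 (SE 0.18, edgeR, adjusted p = 0.767) and -0.19 (SE 0.29, edgeR, adjusted p = 0.693).

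None of the 5 other LPA and S1P receptors passed the filter. *Lpar5* had 22 counts in WT4 and at most 6 in any other library. *S1pr5* had 1 to 10 counts in WT and 1 to 3 in HOMO. *S1pr4* had 2 counts in WT4 only, and *P2ry10* had 1 count in WT3 and 1 in HOMO3.

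All 16 G proteins, small GTPases and their regulators were tested, with a median log2FC of -0.32. Of them 3 were downregulated, against 6.18% of all tested genes. *Gnai1*, an inhibitory G protein subunit, was at 43.2 to 80.2 CPM in WT and 27.5 to 34.1 CPM in HOMO (log2FC -0.98, SE 0.19, edgeR, adjusted p = 0.0153). *Gna11*, a subunit that activates phospholipase C, was at 145 to 235 CPM in WT and 94.5 to 128 CPM in HOMO (log2FC -0.77, SE 0.18, edgeR, adjusted p = 0.0280). *Rhoc*, a small GTPase related to RhoA, was at 196 to 331 CPM in WT and 133 to 152 CPM in HOMO (log2FC -0.84, SE 0.18, edgeR, adjusted p = 0.0208), and its log2FC was -0.54 without WT3 and WT4. In these 3 genes, picked as DEGs, every HOMO library lay below every WT library. The genotypes did not overlap in 27.3% of all tested genes. *Gna12* had a log2FC of -0.56 (SE 0.12, edgeR, adjusted p = 0.0220), inside the fold change limit.

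The 13 genes of the SRF and YAP arm, which is read out below RhoA, were all tested, with a median log2FC of -0.19. None was a DEG with edgeR, where 3 had an unadjusted p below 0.05, and 3 were called by DESeq2 and 2 by limma-voom. Over all tested genes edgeR called 12.1%, DESeq2 19.0% and limma-voom 25.3%. With edgeR 4573 of all 14150 tested genes had an unadjusted p below 0.05. *Ctgf*, named after its values were seen, is a target of YAP and SRF. It was at 1225, 1187, 832 and 4834 CPM in WT1 to WT4 and at 258, 279, 825 and 702 CPM in HOMO1 to HOMO4 (log2FC -1.97, SE 0.65, edgeR, adjusted p = 0.0773). WT3 and HOMO3 nearly met, and WT4 stood far above the rest.

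**Figure D5:**
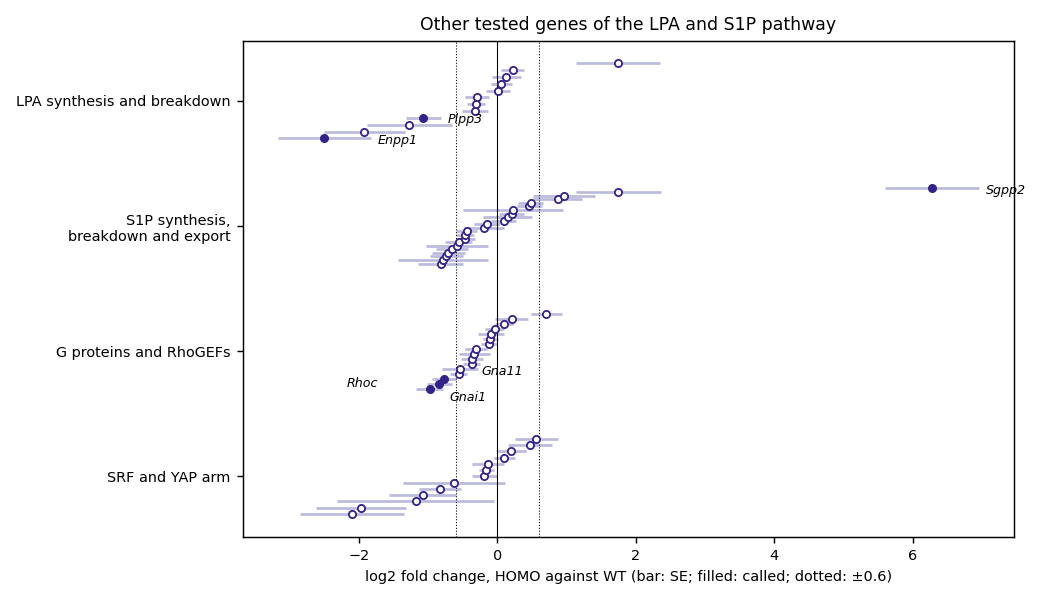
Log2FC of HOMO against WT (horizontal axis, bars are SE, dotted lines ±0.6) for the 63 tested genes of 4 pathway lists, sorted within each list; filled points are DEGs, and the names belong to them. The 1 upregulated gene, *Sgpp2*, has 3 counts in WT in all, so its fitted log2FC depends on the prior count. The 5 downregulated genes lie between -2.50 and -0.77.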

How the data were processed

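Total RNA extracted with TRIzol was poly-T selected, and paired-end libraries were sequenced on a NovaSeq instrument. The authors trimmed reads with fastp, aligned them to mm10 with STAR, and deposited raw counts per gene from featureCounts, without normalization. CASAVA and DESeq2 are also named in the submitters' processing notes. Versions, annotation and strand setting were not given in the sources used here. The label of the table includes the word "outlierout", and whether a library was removed is not stated.

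Groups came from the labels. HOMO was compared with WT by edgeR 4.0.16 (R 4.3.3): TMM, filterByExpr by genotype, and the quasi-likelihood F test, with Benjamini-Hochberg adjustment over 14150 genes. SE is the absolute log2FC over the square root of F. CPM used TMM-scaled library sizes, and log2 CPM a prior count of 2. Genes outside the filter were compared with a 2-sided exact permutation test. Positions and exon lengths came from GENCODE M21 (GRCm38), matched by symbol for 53739 of 54532 entries.

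Alternatives were DESeq2 1.42.0, limma-voom (limma 3.58.1) with sample quality weights, RLE and upper-quartile normalization, no filter, CPM above 1 in at least 4 libraries, no fold change threshold, the replicate number as a block, near-identical libraries summed, and each library left out. Leaving out WT3 and WT4 together was added after seeing the data. Scripts were tested on simulated data with 200 changed genes. There edgeR recovered 14% of 2-fold and 60% of 4-fold changes, and 0% of its calls were false. DESeq2 recovered 48.4% and 82.1%, with 23.1% of its calls false. For limma-voom these values were 12.9%, 56.8% and 1.49%. The simulated libraries were drawn independently, without near-identical pairs, so these rates may not hold for the real libraries. The genes and lists were chosen with earlier results of these data known. Genes named were all 10, the DEGs of each list, and genes that neighbour or overlap a member. Some of these are not reported here. Values were handled in Python 3.11.15 (pandas 2.3.3, scipy 1.17.1, matplotlib 3.10.9).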

Additional observations from a re-analysis of the deposited data

Results flagged for a closer look

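Log2 CPM of the 10 LPA and S1P genes was examined within each genotype for a library far from the other 3, as was that of the 6 DEGs of the pathway lists. Of the 32 groups 3 held one, and chance alone gives about 1 in 20. *S1pr2* in WT4 was at 5.49 against 6.14 to 6.19 in the other WT libraries. *Lpar3* in HOMO4 was at -2.84 against -3.49 in the other HOMO libraries, which all had 0 counts, so that 1 count made the difference. *Enpp2* in HOMO4 was at -1.03 against -1.90 to -1.78, or 8 counts against 4 to 6.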

How the results depend on the processing

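In the fit over all genes, edgeR called 1716 DEGs, of which 2 were LPA and S1P genes and 6 were in the pathway lists. DESeq2 called 2695, 3 and 16, and limma-voom called 3573, 4 and 14. Leaving out WT3 and WT4 together, an alternative chosen after seeing the data, gave 3117, 4 and 15. Summing the near-identical libraries, which leaves 3 WT and 2 HOMO units, gave 0, 0 and 0 (edgeR), with 1818, 2 and 9 genes at an unadjusted p below 0.05, and was not run with another tool. Leaving out 1 library at a time gave 507 to 2192 DEGs, lowest without HOMO1 (507) and HOMO2 (512). It gave 0 to 3 LPA and S1P genes, 0 without HOMO1 or HOMO2 (edgeR, with 3 genes at an unadjusted p below 0.05 in each) and 3 without WT4, and 1 to 11 list genes, 1 without HOMO1 or HOMO2 and 11 without WT3. *Sgpp2*, which passed the filter through HOMO alone, was called in all 8 of these fits. *Gnai1* was called in 6, *Rhoc* in 5, *Plpp3* in 4, *Gna11* in 3 and *Enpp1* in 1. The log2FC of *Lpar1* was -0.40 to 0.11 without 1 library, turning positive without WT3 (0.11), and was also positive with limma-voom (0.44) and without WT3 and WT4 (0.55). The cause of these differences was not tested, except that summing or leaving out libraries leaves fewer of them.

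With the replicate number as a block there were 947 DEGs, 5 of them in the pathway lists (*Sgpp2*, *Gnai1* and *Rhoc* again, with *Plpp1* and *Smpd3*), and 1 LPA and S1P gene, *Lpar2* (log2FC 2.24, edgeR, adjusted p = 0.0200). *S1pr1* was at -1.38 (edgeR, adjusted p = 0.0769), and *Plpp3*, *Gna11* and *Enpp1* were also not called (edgeR, adjusted p = 0.0599, 0.0745 and 0.141). The deviations of same-numbered WT and HOMO libraries correlated at -0.12 to 0.01, so the libraries shared a number and no evident pairing. Of 155 values recomputed for the 10 genes, 127 kept their direction and their side of the threshold, 19 lost it, 6 passed it and 3 turned direction. The 8 values of *Lpar3* without 1 library could not go below p = 0.0571 (exact permutation test), which says nothing of its stability. Depth limited *Lpar3*, *Enpp2* and *Lpar4*, at 0 to 79 counts per library.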
